A study of Bos taurus with 10 samples.

Results

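Uterus and ileum were the pair of cattle tissues whose DNA methylation levels were most alike among 10 tissues profiled by reduced representation bisulphite sequencing (RRBS), and the CG sites at which these tissues still differed are described here. The pair was chosen by its measured levels, that is for the highest correlation. Its members were the autosomal CG sites that reached 8 reads in each library, matched by chromosome, position and strand. They numbered 98553 of the 452664 autosomal CG sites read in any of the 10 tissues, or 78.2 % of the 126076 sites read in uterus and 89.6 % of the 109954 sites read in ileum. At these sites the median was 34 reads in uterus and 37 reads in ileum.

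The study compared tissues of the Hereford cow L1 Dominette and of relatives, with 1 library per tissue. The uterus sample was intercaruncular tissue (the wall between the attachment sites of the placenta) of an adult female, the ileum sample (the last segment of the small intestine) came from a juvenile female, and the nucleated blood cells came from an adult female. The other 7 tissues included skeletal muscle, labelled as near a caesarean, and d 90 lactating mammary gland, both of adult females. The rest were mammary gland parenchyma, frontal cortex and abomasum of juvenile females, testis of an adult male and rumen of a male fetus. No treatment was named for any sample. Tissue, life stage and animal therefore cannot be told apart between uterus and ileum, and no difference below has a replicate check. All tissues were sampled whole, so a level is an average over the cell types of the piece taken, and expression of cell type markers was not analysed here.

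In mammals most CG dinucleotides carry a methyl group on the cytosine, whereas CG-rich stretches, the CG islands, are mostly free of it. Islands that are methylated in some cell types and not in others often lie near genes that are active in one lineage, and a level between the extremes can arise where cells of a tissue differ or where the parental alleles differ. RRBS cuts DNA with MspI at CCGG and sequences short fragments, so CG-rich DNA is read many times while most of the genome is not read. The wall of the ileum holds epithelium, smooth muscle and much lymphoid tissue, and the uterine wall holds epithelium, stroma, smooth muscle and vessels.

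The clearest differences were short blocks of neighbouring CG sites, and 7 of these 11 blocks are printed to show what the differing DNA looks like. Each line gives the plus strand 5′ to 3′ in assembly UMD3.1, put together from the 5 bases deposited around each cytosine, with no base in conflict. Capitals mark the CGs at which a site was called different, and n marks a base that no read cytosine supplied.
Run 1 (chr13:79958891-79958938): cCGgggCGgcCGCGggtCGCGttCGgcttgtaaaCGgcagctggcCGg
Run 2 (chr5:117113129-117113171): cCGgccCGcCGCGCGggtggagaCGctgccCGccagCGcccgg
Run 4 (chr16:47760591-47760639): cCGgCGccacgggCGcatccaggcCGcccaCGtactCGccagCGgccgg
Run 5 (chr18:14533597-14533640): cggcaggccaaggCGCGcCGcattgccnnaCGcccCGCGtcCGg
Run 6 (chr5:117090409-117090450): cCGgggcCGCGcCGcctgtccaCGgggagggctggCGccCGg
Run 8 (chr19:23656911-23656956): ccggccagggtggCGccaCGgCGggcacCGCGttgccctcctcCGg
Run 11 (chr9:104968017-104968061): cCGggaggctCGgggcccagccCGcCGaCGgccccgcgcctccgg

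All 11 blocks were CG-rich. The printed or equivalent fragment of each was 42 to 50 bases long, held 6 to 9 CGs and had a GC content of 77.1 to 88.9 %, and 9 of the 11 both began and ended at a CCGG. These features were favoured in advance, since a block needed at least 5 called sites close together and RRBS reads CG-rich fragments. Fragments without a block were not measured for comparison. Each block was essentially 1 MspI fragment, except that 3 of the 9 called sites of run 3 lay beyond its fragment. Sites on the same strand of a fragment are read by the same reads, so the sites of a block are not separate observations.

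The likeness that chose the pair is given as a description. Pearson's r of the levels over the shared sites was 0.973 for uterus with ileum, the first of 45 pairs, followed by uterus with blood at 0.971 and ileum with blood at 0.970. These correlations run over sites that share libraries, fragments and a split into unmethylated and methylated DNA, and they have no replicate. Ileum, blood and uterus were also the most deeply read libraries, with medians of 33, 30 and 29 reads per autosomal CG site. The other libraries had medians from 9 in abomasum to 27 in the lactating gland. Depth was not equalised over the 45 pairs, so its part in the ranking was not tested. By mean absolute difference the pair came second, at 5.09 percentage points against 5.06 points for mammary gland parenchyma with the lactating gland. By Spearman's rho, which weighs the many sites near 0 % as much as the rest, it came eighth at 0.876.

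Mean methylation was 30.5 % in uterus and 30.8 % in ileum, a difference of uterus minus ileum of -0.356 points. The level was identical (within 1e-09 points) at 29327 sites (29.8 %), within 10 points at 82910 sites (84.1 %), and at least 25 points apart at 3068 sites. The median absolute difference was 2.46 points, the 90th percentile was 13.7 points, the 99th was 36.4 points and the largest was 84.0 points. The spread differed with depth. At the 3757 sites whose lower depth was 8 reads, the minimum admitted, the mean absolute difference was 9.40 points, at the 3003 sites with 9 reads it was 9.01 points, at the 11782 sites with 50 to 99 reads it was 3.42 points and at the 2786 sites with 100 or more it was 4.50 points. Mean level moved with depth as well, from 42.8 % in uterus at 8 reads to 25.3 % at 50 to 99 and 66.6 % at 100 or more.

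A site was called different when Fisher's exact test on the methylated and unmethylated reads gave a Benjamini-Hochberg q below 0.01 over all tested sites and the levels were at least 25 points apart. The test compares these 2 libraries, not the tissues, and because the pair was selected for likeness the calls only sort the sites. Of the 98553 sites tested 230 were called (0.233 %). The level was higher in uterus at 79 called sites (0.0802 % of those tested) and higher in ileum at 151 (0.153 %). Without a minimum difference 452 sites (0.459 %) had a q below 0.01, and 4322 had an unadjusted p below 0.05. The median absolute difference at called sites was 44.3 points. Reads can be PCR copies of the same molecule, so the test covers only the error of counting reads.

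What could be called depended on depth. At the median depth of both tissues, a site unmethylated in uterus had to reach 37.8 % in ileum to be called, and a site at 50 % in uterus had to reach 94.6 %. No site with 8 or 9 reads in the shallower library was called, against 0.299 % of sites with 30 to 49 reads and 0.790 % of sites with 100 or more. Of the 3068 sites at least 25 points apart, 2838 were not called.

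**Figure D1:**
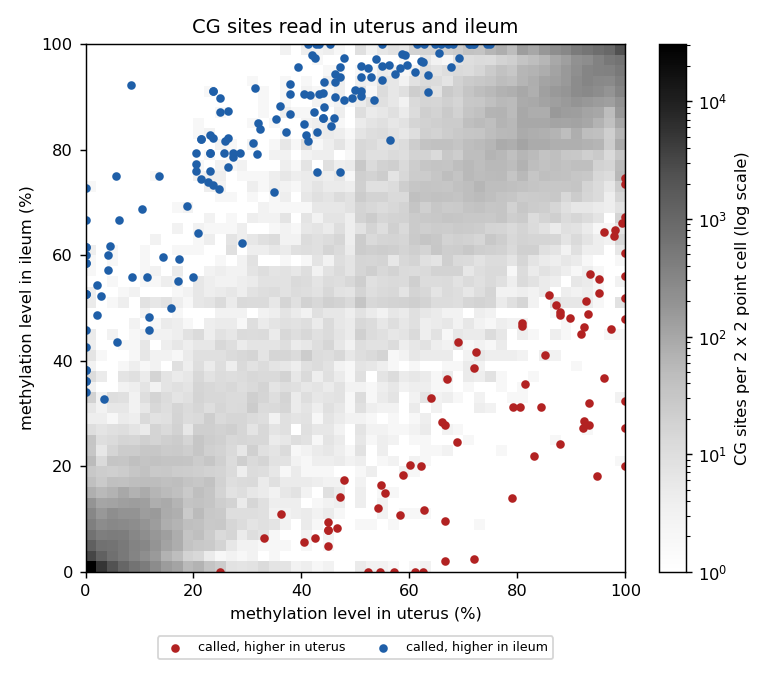
Methylation level in uterus (x axis, %) against ileum (y axis, %) at the 98553 CG sites read in both. Grey shading counts sites per cell on a log scale, red points are the 79 called sites higher in uterus and blue points the 151 higher in ileum, which lie on either side of the diagonal.

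Most sites fell into the same level class in both tissues. With the bounds of 20 and 80 %, 89390 sites (90.7 %) kept their class. Of these, 60832 were below 20 % in both tissues and 19114 above 80 % in both. No site of these 2 classes could be called, since levels within them cannot be 25 points apart. The intermediate class held 9444 sites in both tissues, of which 33 were called.

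Sites that changed class did so mainly at the methylated end. From 20 to 80 % in uterus to above 80 % in ileum there were 3646 sites, 90 of them called, the most of any class pair (39.1 % of the calls). In the opposite sense, above 80 % in uterus and 20 to 80 % in ileum, there were 2497 sites, 40 of them called. At the unmethylated end, 1549 sites were below 20 % in uterus and intermediate in ileum (38 called), and 1464 the reverse (27 called). Only 7 sites went from one end to the other, 2 of them called. Of the 18607 sites outside the 2 classes that cannot be called, 18600 had a level of 20 to 80 % in at least 1 of the tissues, so the 228 called sites among them follow from the rule.

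Complete absence of methylation in uterus was seen at 17 called sites, of 212 tested sites at 0 % in uterus and 20 to 80 % in ileum. Complete absence in ileum was seen at 6 called sites, of 209 in the reverse class. All 9 called sites of run 3 and most of those of run 5 were among the 17, so these are not separate observations. The 6 in ileum lay in different runs. Complete methylation was seen at 10 called sites in uterus, of 305 with 20 to 80 % in ileum. In ileum it was seen at 17, of 446 with 20 to 80 % in uterus.

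Blood levels did not enter the correlation of uterus with ileum, although pairs with blood were among the 45 that were ranked. The sites were sorted by their level in blood at the 95326 sites also read there with at least 8 reads. Uterus and ileum were called different at 227 of these (0.238 %). Where blood was at 0 %, 16 of 32812 sites were called (0.0488 %), and all 16 were higher in ileum, 14 of them in 2 of the fragment-length runs described below (runs 3 and 5). Over all sites of that class 19.6 % were higher in uterus and 19 % higher in ileum. Where blood was above 0 and below 20 %, 21 of 27296 were called (0.0769 %), 17 of them higher in ileum. Most of these 17 lay in runs 8 and 9, so they are not separate observations. The share was highest at sites that were intermediate in blood, 87 of 10636 (0.818 %), which split 37 to 50 between higher in uterus and higher in ileum. In that class the mean level was 47.6 % in uterus, 49.1 % in ileum and 52.5 % in blood. Where blood was above 80 and below 100 %, 82 of 17823 sites were called (0.460 %), with means of 86.7, 88.0 and 92.1 % in uterus, ileum and blood. Where blood was fully methylated, 21 of 6759 were called (0.311 %). Mean methylation at these last sites was 92.0 % in uterus and 93.2 % in ileum, both below blood. Where blood was at 0 % the means were 1.10 and 1.16 %. Sites below 20 % in both tissues or above 80 % in both could not be called. The order of these shares over the blood classes therefore largely follows from the rule, and shares among sites that could be called were not computed.

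Called sites were counted as a run when neighbours of the same direction lay at most 200 bp apart. The 230 sites formed 124 runs, of which 60 were higher in uterus and 64 higher in ileum. Single sites made up 90 of them, 48 higher in uterus and 42 higher in ileum. At the other end 11 runs had at least 5 called sites and held 84 of the 230 (36.5 %). Of these 11, 10 were higher in ileum, with 79 sites, and 1 was higher in uterus, with 5. Outside these 11 runs 72 called sites were higher in ileum and 74 higher in uterus. The runs spanned 26 to 160 bp, and together with the 8 runs of 3 or 4 sites they made 19 runs.

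The 10 long runs higher in ileum differed in where blood stood. The longest, run 1, had 14 called sites on both strands at chr13:79958892-79958937. Its sites lay between 21.4 and 32.4 % in uterus, between 73.2 and 91.1 % in ileum and between 75 and 88.9 % in blood, with means of 24.7, 83.2 and 82.6 %. Ileum and blood overlapped there, and uterus stood far below both. The other 7 tissues ranged from 4.23 % in skeletal muscle to 56.0 % in frontal cortex, so none reached the level of ileum or blood.

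Run 4 (chr16:47760592-47760634, 8 called sites) had the same shape with unmethylated DNA elsewhere. Its mean was 22.4 % in uterus, 78.6 % in ileum and 72.8 % in blood. All 7 other tissues were below 20 %, with mammary gland parenchyma the lowest at 0.848 %. Abomasum (12.5 %) and testis (10.5 %) were each read at 1 of the 8 sites only, with 8 and 19 reads, and the other 5 were at 4.68 % or less.

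Runs 2, 6 and 10 were close to full methylation in ileum and in blood. Run 2 (chr5:117113130-117113166, 10 sites) had a mean of 51.0 % in uterus, 95.2 % in ileum and 97.7 % in blood. Run 6, on the same chromosome (chr5:117090410-117090449, 7 sites), had 40.2 % in uterus, 90.8 % in ileum and 97.2 % in blood. Run 10 (chr25:3761860-3761901, 5 sites) had 44.5, 88.6 and 97.6 %. In each of the 3 runs uterus lay between blood and the least methylated tissue, which was mammary gland parenchyma at 21.0 % in run 2, frontal cortex at 5.54 % in run 6 and the lactating gland at 6.45 % in run 10. Rumen was the highest of the other tissues read in all 3, at 93.3, 79.98 and 76.8 %.

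In runs 3, 5, 8 and 9 blood lay with uterus instead. Run 5 (chr18:14533611-14533639, 7 sites) had a mean of 1.5 % in uterus, 0.985 % in blood and 62.2 % in ileum, and 6 of its 7 sites had no methylated read in either uterus or blood. The other tissues fell on both sides, with rumen, skeletal muscle and testis at 5.42 to 6.59 % and the 2 mammary samples, abomasum and frontal cortex at 33.7 to 50.4 %. Run 8 (chr19:23656925-23656955, 6 sites) had 2.82 % in uterus, 3.84 % in blood and 54.6 % in ileum. Skeletal muscle, at 61.6 %, was above ileum in run 8, and testis was the lowest of the other tissues at 11 %. Run 3 (chr5:28198499-28198658, 9 sites) had no methylated read in uterus, 0.383 % in blood and 42.6 % in ileum, with the other tissues read there from 0 % in testis to 24.3 % in frontal cortex. Run 9 (chr22:60024276-60024301, 6 sites) had 10.6 % in uterus, 18.0 % in blood and 51.5 % in ileum. In run 9 the other tissues ran from 31.5 to 78.1 %, so uterus and blood were the lowest of the 10 tissues.

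Run 7 (chr3:119348146-119348184, 7 sites) was intermediate in blood, at 61.6 % between 46.6 % in uterus and 92.8 % in ileum. Run 11 was the one long run higher in uterus (chr9:104968018-104968045, 5 sites), with 91.7 % in uterus, 51.5 % in ileum and 96.5 % in blood. Ileum was not alone at that level in run 11, since skeletal muscle was at 45.6 % and abomasum at 52.9 %. Blood was nearer to ileum in 5 of the 11 runs and nearer to uterus in 6.

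**Figure D2:**
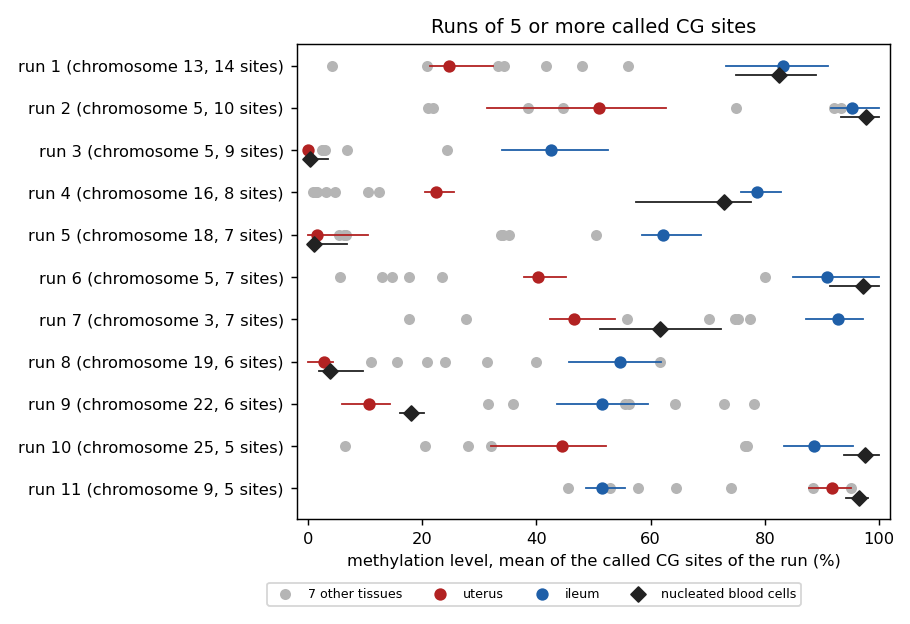
Mean methylation level (x axis, %) of the called CG sites of each run of 5 or more, by tissue, with lines from the lowest to the highest site for uterus (red), ileum (blue) and nucleated blood cells (black) and grey points for the means of the other 7 tissues. Blood lies nearer to ileum in runs 1, 2, 4, 6 and 10 and nearer to uterus in runs 3, 5, 7, 8, 9 and 11.

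Other tested CG sites of the long runs mostly differed in the same direction. In runs 5 and 7 all tested sites were called ones. In 8 runs every tested site, called or not, differed in the direction of the run, with a smallest difference of 49.4 points in run 1, 40.9 in run 4, 37.6 in run 6, 32.1 in run 10, 29.4 in run 9, 23.7 in run 8, 21.4 in run 2 and 16.1 in run 11. In run 3 this held for 28 of 30 sites.

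**Figure D3:**
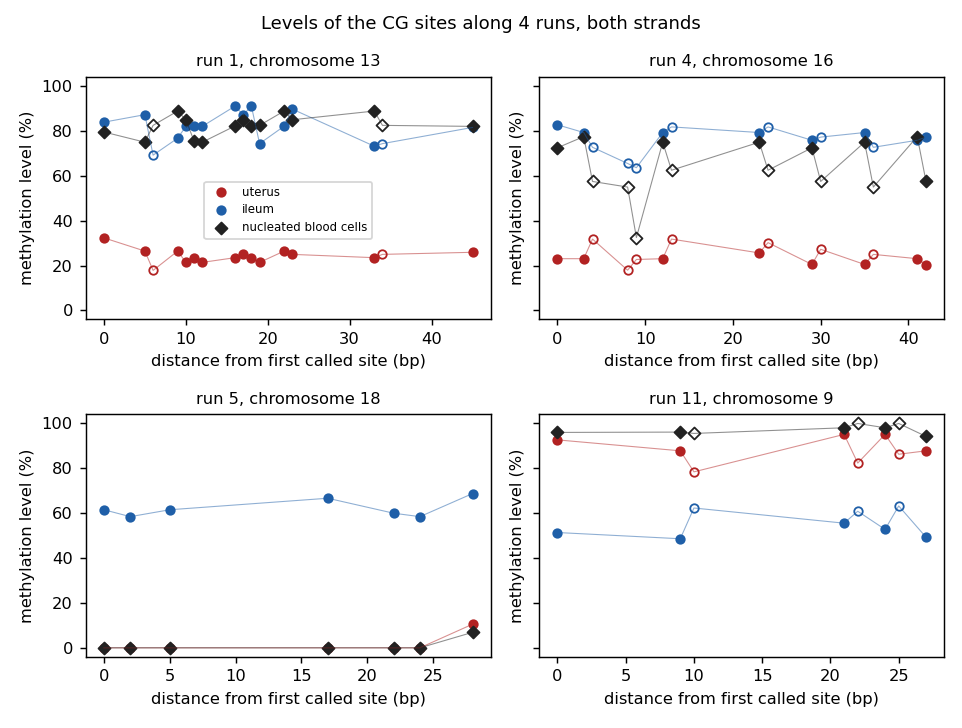
Methylation level (y axis, %) against distance from the first called site (x axis, bp) for 4 runs, both strands together, with filled marks for called and open marks for other tested CG sites. Along each run uterus (red) and ileum (blue) stay apart, with blood (black) near ileum in runs 1 and 4 and near uterus in runs 5 and 11.

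Both cytosines of a CG pair are normally methylated alike, and the reads of one strand are other reads than those of the opposite strand. For 152 of the 230 called sites the opposite strand was read in both tissues, and it differed in the same direction at 122. In the runs of at least 5 sites, where a called opposite strand counts towards the run, this held for 61 of 61, with a median difference on the opposite strand of 38.4 points against 49 points on the called strand. Of these, 41 opposite sites were not called themselves, and their median was 31.5 points.

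Single called sites behaved otherwise. Of the 50 with a read opposite strand 28 differed in the same direction, with a median of 0.654 points (quartiles -3.59 and 13.2), while the called strand had a median of 39.5 points. Under 10 points remained at 35 of the 50, and 3 reached 25 points, although a pair of called strands would not have counted as a single site. The CG lay inside an MspI recognition site (CCGG) at 21 of the 90 single sites (23.3 %), against 16.1 % of all tested sites. Bases that differ between the animals, uneven conversion and reading errors at a single position were not tested.

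The called sites with the largest difference and at least 30 reads in both tissues are listed next. Their opposite strand was read in both tissues only where it is mentioned, so most of them cannot show this contrast. Higher in uterus, all 5 were single sites. The minus-strand site chr22:60485500 had 23 methylated of 32 reads in uterus (71.9 %, 95 % Wilson interval 54.6 to 84.4) and 1 of 42 in ileum (2.38 %, 0.42 to 12.3), with 51.3 % in blood. Other tissues read at chr22:60485500 ranged from 0 to 100 %. The minus-strand site chr10:103427913 was fully methylated in uterus with 37 of 37 reads (90.6 to 100 %) and had 12 of 37 in ileum (32.4 %, 19.6 to 48.5). Ileum stood alone there, since blood was at 100 % and the 6 other tissues read were at 71.4 % or more.

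The deepest of them was the minus-strand site chr3:95025941, with 397 of 503 reads in uterus (78.9 %, 75.2 to 82.3), 55 of 395 in ileum (13.9 %, 10.9 to 17.7) and 75 % in blood. The opposite strand of that CG was at 100 % in both tissues, with 454 and 301 reads. On the called strand, the other tissues ranged from 3.70 % in testis, below ileum, to 79.1 % in skeletal muscle. The plus-strand site chr13:49019586, inside an MspI site, had 54 of 65 reads in uterus (83.1 %, 72.2 to 90.3) and 7 of 32 in ileum (21.9 %, 11 to 38.8). Blood was at 83.9 % there, and the other tissues read ranged from 22.2 % in frontal cortex to 100 % in the lactating gland. On the opposite strand of chr13:49019586 the level was 3.38 % in uterus and 2.33 % in ileum. The plus-strand site chr11:181766 had 24 of 42 reads in uterus (57.1 %, 42.2 to 70.9), 0 of 61 in ileum (upper bound 5.92 %) and 53.3 % in blood, and ranged from 0 to 90.2 % over the other tissues.

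Higher in ileum, the 5 sites with the largest difference all lay in long runs. The plus-strand sites chr13:79958908 and chr13:79958910 of run 1 each had 8 of 34 reads in uterus (23.5 %, 12.4 to 40.0) and 51 of 56 in ileum (91.1 %, 80.7 to 96.1), with 82.2 % in blood. Their opposite strands, read by other molecules, differed by 62.2 and 52.9 points in the same direction. The minus-strand site chr18:14533628 of run 5 had 0 of 38 reads in uterus (upper bound 9.18 %) and 42 of 63 in ileum (66.7 %, 54.4 to 77.1), and 0 methylated reads in blood. The other 2, chr18:14533611 and chr18:14533616, both had 40 of 65 reads in ileum (61.5 %, 49.4 to 72.4) and none in uterus or blood.

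Over all called sites, blood was mostly nearer to uterus where uterus was higher and was divided where ileum was higher. Of the 79 called sites higher in uterus 48 were single sites. Where read, the opposite strand of single sites differed by a median of only 0.654 points. Counting by run does not remove this limit. At the 76 sites higher in uterus that were read in blood, the mean level was 75.5 % in uterus, 31.5 % in ileum and 71.1 % in blood. Blood was nearer to ileum at 15 of them (19.7 %) and above both tissues at 33. At the 151 sites higher in ileum, the mean was 33.7 % in uterus, 80.1 % in ileum and 61.9 % in blood. Blood was nearer to ileum at 86 of these (57.0 %), between the tissues at 90, above both at 46 and below both at 15. The quartiles of blood there were 23.9 and 94.4 %, with 33 sites below 20 %, 50 from 20 to 80 % and 68 above 80 %. In the same classes, the mean blood level of a run fell 10, 25 and 29 times. Counted by run, to give each run the same weight, blood was nearer to ileum in 13 of 58 runs higher in uterus (22.4 %) and in 36 of 64 higher in ileum (56.3 %).

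None of the other 7 tissues was as often nearer to the more methylated tissue as blood, in either direction of the call. At the sites higher in ileum, the share nearer to ileum was 48.5 % for abomasum, 38.4 % for frontal cortex, 33.8 % for testis, 33.6 % for rumen, 28.2 % for mammary gland parenchyma, 23.8 % for skeletal muscle and 21.3 % for the lactating gland. At the sites higher in uterus, the share nearer to ileum was highest for testis at 84.4 % and frontal cortex at 63.6 %, and 30.3 to 55.1 % for the other 5. Abomasum was read at 99 of the 151 sites higher in ileum, with a median of 14 reads.

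**Figure D4:**
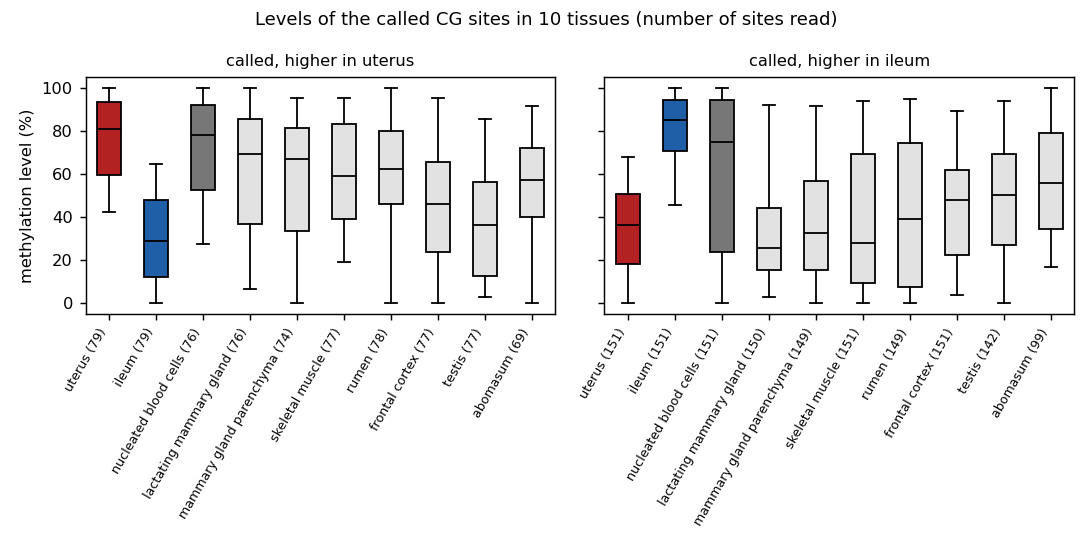
Methylation level (y axis, %) of the called CG sites in each tissue, left for sites higher in uterus and right for sites higher in ileum, with the number of sites read in brackets. Boxes span the quartiles with the median, and whiskers show the 5th to 95th percentile. Blood has a median of 78.0 % on the left and 75 % on the right.

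Sites at which blood stood apart were then chosen without use of uterus or ileum. Among the 51227 sites read in all 10 tissues, blood differed by at least 40 points in one direction from each of the 7 tissues other than uterus and ileum at 225 sites, being lower at 72 and higher at 153. By their median place, both uterus and ileum lay between blood and the mean of the 7 tissues at these sites. On a scale on which the mean of the 7 tissues is 0 % and blood is 100 %, the median place was 35.6 % for uterus (quartiles 27.1 and 47.7) and 39.6 % for ileum (15.1 and 55.3). Uterus was displaced towards blood at 224 of the 225 sites and ileum at 207.

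Where blood was higher, the mean level was 17.0 % in the 7 tissues, 41.8 % in uterus, 46.0 % in ileum and 81.6 % in blood. Where blood was lower, the median place was 33.2 % for uterus and 23.1 % for ileum. Ileum was nearer to blood at 114 of the 225 sites and uterus at 108, and the mean absolute difference between them was 14.7 points, against 5.09 points over all members. Of the 225 sites 5 (2.22 %) were among the called sites, against 0.233 % of all members. Most members were below 20 % in both tissues or above 80 % in both and could not be called. Among the 18600 members with 20 to 80 % in at least 1 tissue, 228 were called. Neither comparison with all members was matched for level.

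The same measure gave smaller places for other tissues. With each of the 7 tissues put to the test in turn and the remaining 6 as the reference (232 to 288 sites), the medians ran from -10.2 % for rumen to 12 % for skeletal muscle. At sites that set 5 other tissues apart in the same way, with 36 to 299 sites each, the median places of uterus and ileum were between -3.28 and 5.09 %. For the other two, with under 20 sites, they were -5.36 and -7.75 % (mammary gland parenchyma, 5 sites) and -11.9 and -13.3 % (rumen, 2 sites). The sites share fragments and each tissue is 1 library, so no test was made. The share of blood cells in either tissue was not measured, and its part in these places was not tested.

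**Figure D5:**
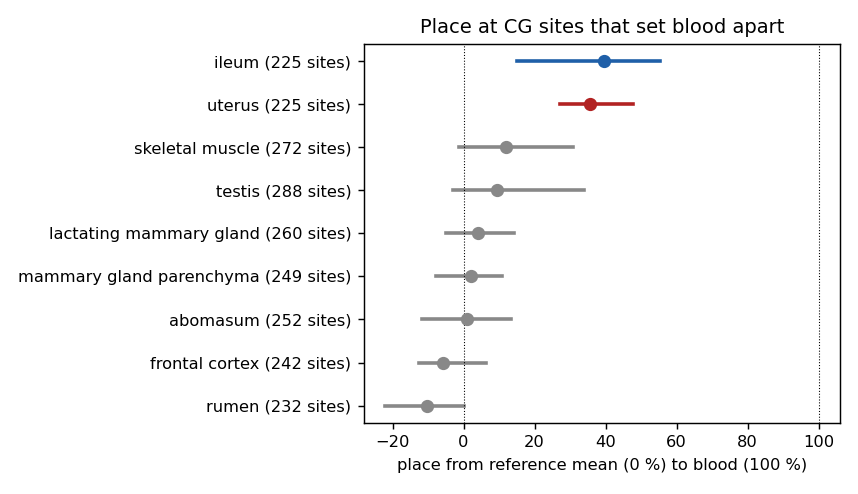
Median place of each tissue (points, with lines over the quartiles) at CG sites where nucleated blood cells differ by at least 40 points from every reference tissue, with the reference mean at 0 % and blood at 100 % (x axis). Ileum at 39.6 % and uterus at 35.6 % lie to the right of the 7 other tissues, each set against the remaining 6 as reference, which run from -10.2 to 12 %.

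The same calling rule was applied to blood against each tissue at the 95326 sites read in all 3. Against 227 calls between uterus and ileum (0.238 %), there were 600 between uterus and blood (0.629 %), of which 481 were higher in blood. Between ileum and blood there were 686 (0.720 %), of which 392 were higher in blood and 294 in ileum. Over all sites that each pair shared the shares called were 0.519 % for uterus with blood, 0.718 % for ileum with blood and 0.339 % for mammary gland parenchyma with the lactating gland. These comparisons share libraries and are given side by side only. Mean absolute differences were nearer to each other, at 4.92, 5.33 and 5.37 points.

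The calls were spread over 28 of the 29 autosomes. Chromosome 5 had the most, 34 sites (0.770 % of those tested there), of which 26 belonged to runs 2, 3 and 6. Chromosome 3 had 23 (0.493 %) and chromosome 13 had 19 (0.474 %), 14 of them in run 1. Gene names and gene structure at these positions were not analysed here.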

How the data were processed

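RRBS libraries of 10 cattle tissues, 1 each, were compared at single cytosines. The authors trimmed the reads, aligned them with SOAPaligner to UMD3.1 (build as in the submitters' processing notes) and deposited, per cytosine, a count of reads and a methylation level as a fraction. The deposited read counts stop at 65535. Their false-discovery columns were not used. Methylated reads were the product of level and count, which came out whole (within 1e-06 reads) at every autosomal CG site. Python 3.11.15 with scipy 1.17.1 and pandas 2.3.3 was used. The calling was also run on simulated reads drawn independently at each site, a check that does not cover PCR copies or linked sites. Strands were kept apart.

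Members, site classes and lists were chosen with earlier results of these data known. Runs were named up to 8 per direction by number of called sites, and runs 9 and 10, beyond that limit, were added after their values were seen. Named sites were the 5 per direction with the largest difference among called sites read 30 times or more in each tissue. Island positions, used in the closing section, came from the study's own list, chosen on these samples, and no other value of it was used. Alternatives were the read minimum, thresholds, thinning, summed strands, and other measures of likeness. Intervals beside single sites are 95 % Wilson intervals for counted reads.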

Additional observations from a re-analysis of the deposited data

How the results depend on the processing

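The number of called sites was 230 and moved most with the threshold. It was 144 at a minimum of 40 points, 452 with no minimum, 367 at q below 0.05, 72 with a Bonferroni-adjusted p below 0.01 and 142 with the deeper library thinned to the lower depth of each site. It was 230 at 10 reads, 234 at 20 reads and 219 without the deepest sites. With the strands summed, 314 of 66793 CGs were called (0.470 %), among them 173 of the 219 CGs with a site called in the analysis by strand. The share of calls higher in uterus was 34.3 %, 41.7 % under Bonferroni and 29.2 to 35.2 % under the other settings. The rank of the pair was 1 by Pearson's r, also at 20 reads and at sites read in all 10 tissues, 8 by Spearman's rho and 2 by mean absolute difference. Runs of at least 5 sites numbered 11, also with gaps of 100 or 500 bp, with 19 at a minimum of 3 sites (14 higher in ileum) and 18 with the strands summed (16 higher in ileum). The last setting, and a 50-point rule for sites that set blood apart (120 sites, median places 35.4 % for uterus and 38.4 % for ileum), were chosen after seeing the data. The share of called sites at which blood was nearer to ileum was 12.8 to 20.5 % for those higher in uterus and 55.9 to 59.6 % for those higher in ileum under the alternatives. At the depth of these libraries 196 sites (0.199 %) could not have been called at any level, since 8 against 8 reads give a p of at least 0.000155 by Fisher's exact test and the largest p called was 4.47e-05. No paired analysis was possible because each tissue has 1 library, and no library could be left out.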

Other observations

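The study listed CG islands as differentially methylated among these same samples, so the list was selected for differing between tissues and is not independent evidence. Of 836 listed islands 768 had at least 5 CG sites read in both tissues. The median difference of uterus minus ileum was -0.682 points, and 615 islands (80.1 %) were within 10 points. At least 25 points separated 30 islands, 5 higher in uterus and 25 higher in ileum. Called sites lay in 51 islands, which held 139 of the 230 (60.4 %), while the compared islands held 15664 (15.9 %) of all tested sites.

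The islands that were most methylated in ileum relative to uterus were mostly those of the long runs. They were chr18:14532459-14533699 (1.5 % in uterus, 62.2 % in ileum, 0.985 % in blood), chr13:79958011-79959020 (24.3, 81.8 and 82.5 %), chr16:47759617-47761697 (24.5, 76.3 and 64.0 %) and chr3:119347480-119348392 (46.6, 92.8 and 61.6 %). The fifth, chr7:73671590-73672478, had 39.6 % in uterus, 83.3 % in ileum and 59.4 % in blood without any called site. Higher in uterus were chr9:104967820-104968146 (88.0 % in uterus, 58.5 % in ileum, 97.9 % in blood), chr12:19671287-19675989 (61.6, 32.8 and 57.6 %), chr4:4494289-4496008 (45.3, 16.6 and 32.1 %), chr23:49684481-49685330 (91.3, 62.9 and 92.9 %) and chr13:84030114-84032300 (34.8, 8.42 and 24.7 %). In the last of these the other 7 tissues were at 1.54 to 4.58 %, so uterus and blood stood above the rest, while in chr4:4494289-4496008 ileum was the lowest of the 10 tissues.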
